A study of Saccharomyces cerevisiae with 94 samples.

Results

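SLD2, SLD3, DPB11, DBF4, CDC45 and SLD7 are the 6 replication initiation factors that the SSDDCS yeast strain over-expresses, and they were taken from the expression table by systematic name, as 6 of 6444 genes. Transcript abundance was measured by RNA-seq in the budding yeast Saccharomyces cerevisiae (W303 background, MATa) in 94 libraries from 2 strains and 12 time points. All cells carried the marker alleles leu2-3,112, trp1-1, his3-11,15, ade2-1 and ura3-1 together with rad5-535 and can1-100, and lacked SML1, which encodes an inhibitor of ribonucleotide reductase. The control strain, sml1Δ, had URA3 in place of SML1. The SSDDCS strain had a hygromycin marker there (HphNT in the labels, HphMX in the study's strain list) and 3 constructs, each with a pair of genes on either side of a divergent GAL1-10 promoter: SLD7 and CDC45 with the LEU2 marker at leu2, SLD3 and DBF4 with HIS3 at his3, and SLD2 and DPB11 with TRP1 at trp1. The labels write 2 of these genes as SLD3-A and Dbf4-A without saying what A stands for. Cultures grown in raffinose were arrested in G1 with alpha factor, given galactose for 30 min in the arrest and sampled (G1), then released into galactose medium and sampled at 5, 10, 15, 20, 25, 30, 35, 40, 45, 50 and 60 min. Each group held 4 libraries, except that the 25 min groups held 3, namely replicates 1, 3 and 4.

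The constructs were added at the marker loci, so a read in SSDDCS can come from the native or the galactose-driven copy, and the values cannot tell them apart. In a population of cells, a change in the transcripts per cell and a change in the share of cells at a cell cycle stage cannot be told apart either. Values are normalised read counts, that is, the reads counted in a gene after division by a size factor for the library. All 6 genes passed the filter of a mean value of at least 10. A difference is said to be called, or a gene to have risen or fallen, where limma fitted over 6414 genes gave a Benjamini-Hochberg adjusted p under 0.01, and log2 differences are on the scale of log2(value + 1). Some time contrasts are also given with the culture as a block, a fit in which each culture is compared with itself.

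Replication starts at origins that were loaded with the inactive MCM helicase in G1. In S phase, Dbf4 binds and activates the kinase Cdc7, which phosphorylates the loaded helicase and so allows the Sld3-Sld7 complex to bring Cdc45 to it. Cyclin-dependent kinase phosphorylates Sld2 and Sld3, which then bind the scaffold protein Dpb11, and the GINS complex joins Cdc45 and MCM to form the active helicase. Several of these proteins are scarce relative to the number of origins in yeast. Many genes needed for S phase are switched on at the end of G1 by the factor MBF, which binds the MCB motif, and the galactose genes are switched on by Gal4.

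On the S288C R64 assembly, SLD2 (YKL108W) lies on chromosome XI from 234426 to 235787 on the plus strand and SLD3 (YGL113W) on chromosome VII from 295932 to 297938 on the plus strand. DPB11 (YJL090C) lies on chromosome X from 262757 to 265051, DBF4 (YDR052C) on chromosome IV from 558511 to 560625, CDC45 (YLR103C) on chromosome XII from 343989 to 345941 and SLD7 (YOR060C) on chromosome XV from 440390 to 441163, all on the minus strand. These are coding coordinates, and no gene with a position in the annotation overlapped any of the 6. The 600 counted genes without a position, YDR053W among them, could not be checked. Coding lengths ran from 774 bases for SLD7 to 2295 for DPB11.

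The native promoters are shown because the genes behind them followed different courses through the cell cycle. Each sequence is 200 bases from RefSeq (R64), 5′ to 3′ on the gene's strand, from 250 to 51 bases before the start codon, and capitals mark the MCB core ACGCGT. SLD7, whose native level was not called different from G1 at any time, has no match and is shown for comparison.
CDC45, chrXII:345992-346191, minus strand: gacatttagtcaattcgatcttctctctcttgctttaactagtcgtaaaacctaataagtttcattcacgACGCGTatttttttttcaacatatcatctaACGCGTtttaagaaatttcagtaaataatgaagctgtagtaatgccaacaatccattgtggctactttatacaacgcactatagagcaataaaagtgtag
SLD2, chrXI:234176-234375, plus strand: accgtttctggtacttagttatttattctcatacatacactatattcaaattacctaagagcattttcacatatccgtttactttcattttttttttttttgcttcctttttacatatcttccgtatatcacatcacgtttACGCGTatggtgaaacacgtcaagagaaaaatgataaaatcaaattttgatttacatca
DBF4, chrIV:560676-560875, minus strand: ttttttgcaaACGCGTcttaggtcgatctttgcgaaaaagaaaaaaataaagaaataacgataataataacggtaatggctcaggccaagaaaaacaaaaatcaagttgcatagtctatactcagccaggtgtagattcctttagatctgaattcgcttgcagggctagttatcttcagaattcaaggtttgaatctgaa
SLD7, chrXV:441214-441413, minus strand: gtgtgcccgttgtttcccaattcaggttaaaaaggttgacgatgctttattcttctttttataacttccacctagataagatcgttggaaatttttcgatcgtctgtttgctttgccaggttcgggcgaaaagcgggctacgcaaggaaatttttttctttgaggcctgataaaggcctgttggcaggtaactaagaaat

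The search ran on both strands from 250 bases before to 50 bases after each start codon. CDC45 had 2 MCB matches, 180 and 150 bases before its start codon, SLD2 had 1 at 109 bases and DBF4 had 1 at 240 bases. The windows of SLD3, DPB11 and SLD7 held none, although native SLD3 and DPB11 also rose after release. Among all 6026 promoters searched, 184 (3.05%) held a match. None of the 6 windows held the SCB motif CACGAAA, found in 4.18% of promoters, or the Gal4 motif CGGNNNNNNNNNNNCCG, found in 1.34%. A match is only a description of the letters, and a window without one may still bind the factor.

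The reference stretch between GAL1 and GAL10, from which the driving promoter of the constructs takes its name, is shown next, with 3 Gal4 matches in capitals. The promoter as built into the constructs was not analysed here.
GAL1-GAL10, chrII:278548-278641, plus strand: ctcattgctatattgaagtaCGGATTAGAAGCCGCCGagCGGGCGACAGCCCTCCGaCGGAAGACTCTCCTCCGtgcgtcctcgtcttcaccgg

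Libraries held 8119387 to 21677438 reads in genes (median 10031426), with size factors of 0.722 to 1.95, and replicate 1 was the deepest in either strain. The strains were checked against mating type markers. In G1 the summed MATa markers (MFA1, MFA2, STE2, STE6, BAR1 and AGA2) reached 61097 to 84005 over both strains, and the summed MATalpha markers reached 517 to 633. Pheromone response genes (FUS1, FIG1, AGA1 and PRM1) summed to 17674 to 40333 in G1 and to 410 to 1549 at 20 and 60 min. From 20 min on, each SSDDCS library exceeded each sml1Δ library at 7 of 12 time points in the MATalpha sum (20 to 50 min) and at 8 of 12 in the pheromone response sum (20 to 60 min). At 30 min the MATalpha markers reached 486 to 576 in sml1Δ and 877 to 1075 in SSDDCS, and the pheromone response genes 586 to 734 and 1256 to 1628. The share of all genes with no overlap between strains was not worked out. By limma, 10.2% of all genes were called higher in SSDDCS at 20 min, 17% at 30 min and 2.62% at 60 min. Singly, the pheromone response genes FUS1 and AGA1 were called higher in SSDDCS at 8 time points, PRM1 at 6 and FIG1 at 4. In that order, their log2 differences at 30 min were 0.92, 1.22, 1.08 and 1.48. STE3, the a-factor receptor of MATalpha cells, was higher at 8 (2.70 at 30 min), the agglutinin gene SAG1 at 6 (0.57) and the alpha factor gene MF(ALPHA)1 at 4 (2.38). The values of MF(ALPHA)1 were low, with 5.74 ± 3.42 in sml1Δ and 30.8 ± 5.66 in SSDDCS at 30 min (SD, n = 4). MF(ALPHA)2, the remaining marker in the MATalpha sum, was higher at 1 (0.50). Of the MATa markers, BAR1, a protease that degrades alpha factor, was higher at 3 (2.16) and STE2 at 2 (0.72). MFA1, MFA2, STE6 and AGA2 were not called at any time point. The summed MATa markers lay higher without overlap at 2 time points. The part of these differences in the values of the 6 factors was not tested. The native courses were also fitted without the 50 and 60 min libraries of sml1Δ replicate 4, and a call that this changed is given beside its result.

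The first question was how the native genes behaved in sml1Δ, where no extra copy is present. CDC45, SLD2, DBF4 and DPB11 rose within 5 min of release and fell back later, SLD3 rose a little, and SLD7 was not called different from G1 at any time. A limma F-test over the 11 later time points called 4 of the 6 genes, beside 83.5% of all genes, so that being called in this test is common. The plot of all library values shows these courses.

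**Figure D1:**
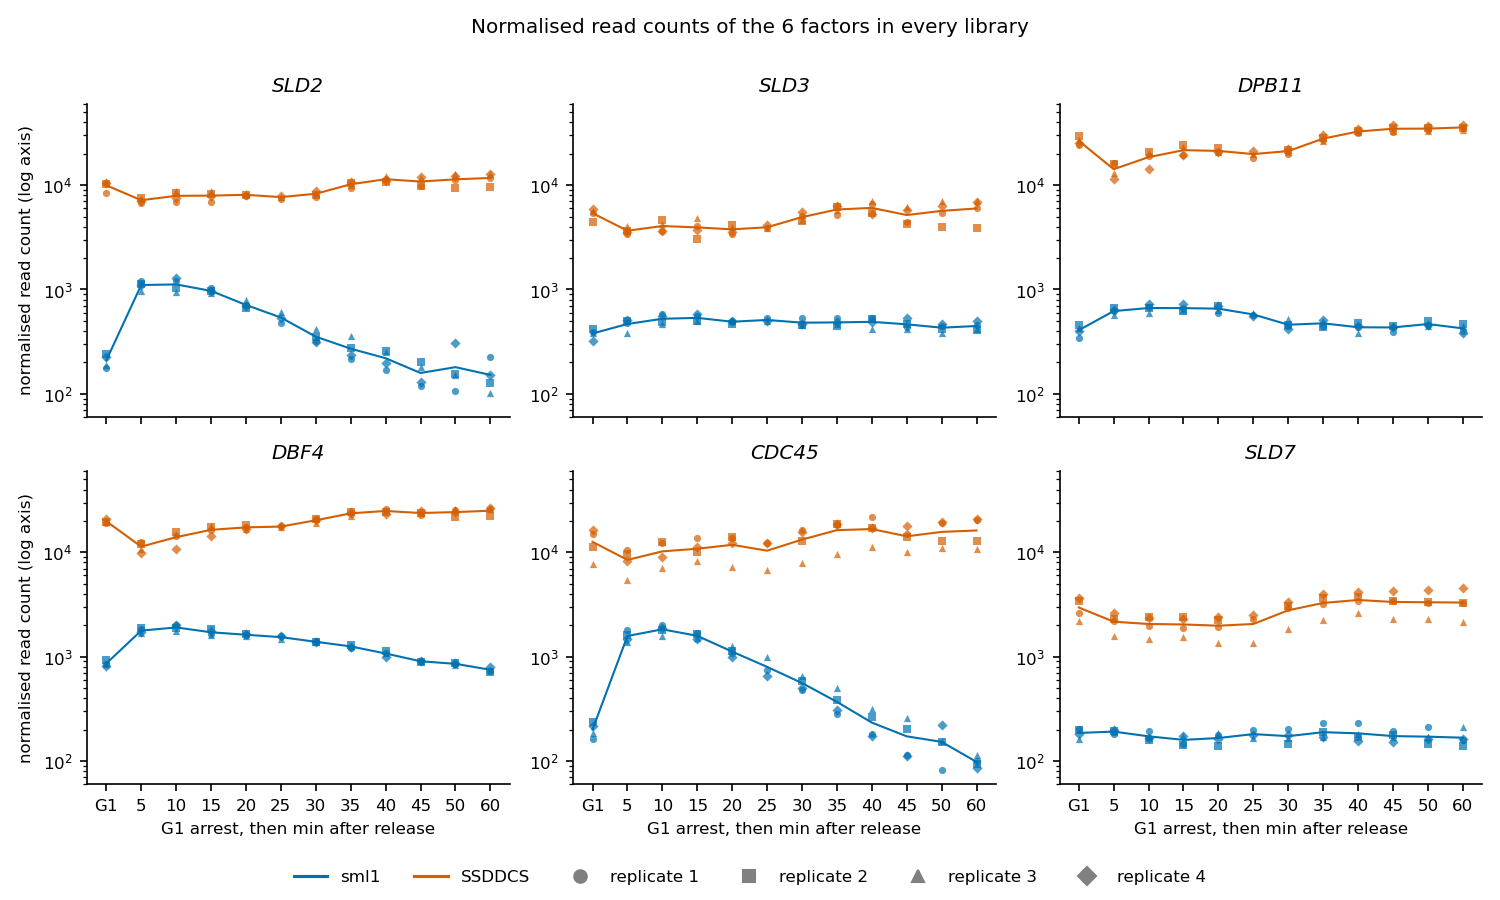
Normalised read counts (log axis) of the 6 factors in G1 and from 5 to 60 min after release, for each library of the sml1Δ strain (written sml1, blue) and SSDDCS (orange), with marker shapes for replicates and lines through the group means. The SSDDCS libraries sit above the sml1 libraries for each factor at each of the 12 time points, and the narrowest gap is that of CDC45 at 5 min, where the lowest SSDDCS library is 3.00 times the highest sml1 library.

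CDC45, a subunit of the active helicase, showed the widest native cycle. Its values in G1 were 164, 237, 185 and 216 in replicates 1 to 4, and at 10 min they were 2031, 1801, 1584 and 1896. At 60 min they had fallen to 99.1, 92.9, 114 and 85.1. The 10 min libraries were above all G1 libraries and the 60 min libraries were below them, with no overlap, and all 4 cultures reached their highest value at 10 min. The mean at 10 min (1828 ± 188, SD, n = 4) was 18.7 times the mean at 60 min. The log2 difference from G1 was 3.19 at 10 min (SE 0.27, adjusted p = 1.67e-17), and CDC45 was higher than G1 from 5 to 35 min. At 60 min it was lower than G1, with -1.02 on the log2 scale (adjusted p = 0.00183, 12.2% of all genes called lower). That call was lost without sml1Δ replicate 2 (adjusted p = 0.0296), without replicate 4 (0.0255) and under quantile normalization (0.0113).

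SLD2, a target of cyclin-dependent kinase that binds Dpb11, followed a similar course at a lower level. It stood at 178, 243, 190 and 226 in G1 and at 1207, 1038, 953 and 1274 at 10 min. The 2 groups did not overlap, and the 10 min mean (1118 ± 148, SD, n = 4) was 7.38 times the 60 min mean, the lowest of the course. Replicates 2 and 3 were already highest at 5 min. The log2 difference from G1 was 2.41 at 10 min (SE 0.17, adjusted p = 1.49e-21), and SLD2 was higher from 5 to 30 min. At 60 min its values of 227, 127, 101 and 151 overlapped those of G1, and its difference of -0.51 was not called (adjusted p = 0.0123), whereas it was called with the culture as a block (adjusted p = 0.00758, 17.9% of all genes) and without the late libraries of replicate 4 (0.00711). That replicate held 307 at 50 min, against 106 to 155 in the others.

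DBF4, the activating subunit of the Cdc7 kinase, had the highest native level per length in G1 and a smaller cycle. Its values were 850, 933, 852 and 805 in G1 and 1991, 1873, 1752 and 2009 at 10 min, without overlap. The log2 difference was 1.15 (SE 0.07, adjusted p = 7.38e-25), DBF4 was higher than G1 from 5 to 40 min, and its highest mean was 2.55 times its lowest, at 60 min. DBF4 also varied least between cultures, with a median coefficient of variation of 4.08% over the groups, against 15.4% for CDC45 and 13.9% for SLD2.

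DPB11, the scaffold bound by Sld2 and Sld3, stood at 345, 454, 432 and 395 in G1 and at 678, 660, 595 and 721 at 10 min. These groups did not overlap. The log2 difference at 10 min was 0.71 (SE 0.09, adjusted p = 7.38e-11), and DPB11 was higher than G1 from 5 to 25 min. Its highest mean was 1.63 times its lowest.

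SLD3, which recruits Cdc45 together with Sld7, rose from 387, 418, 384 and 324 in G1 to 562, 498, 494 and 582 at 15 min, again without overlap. The log2 difference of 0.50 (SE 0.13, adjusted p = 0.000639) was its largest, and SLD3 was called from 10 to 25 min. Without sml1Δ replicate 4 the calls at 10 min (adjusted p = 0.0417) and 15 min (0.0316) were lost, and without replicate 1 that at 10 min (0.0185). With the culture as a block SLD3 was also higher at 30, 35 and 40 min (adjusted p = 0.00392, 0.00316 and 0.00224, beside 32.4%, 32.1% and 30.8% of all genes). The F-test over the whole course did not call it (adjusted p = 0.0306), and did with that block (0.00289, 94% of all genes called).

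SLD7, the partner of Sld3, was the only member with no called difference from G1 in sml1Δ, in the main limma fit, with the culture as a block and by edgeR and DESeq2, which gave 0 of 11 time points each. At an unadjusted p under 0.05 the block gave 1 and the other fits 0. Its values ran from 138 to 229 over all libraries, its highest mean was 1.20 times its lowest, and the F-test gave an adjusted p of 0.975. The log2 differences lay between -0.22 and 0.05, each with an SE of 0.20 to 0.22. In all, 30 of the 66 pairs of gene and later time point were called higher than G1. At 10 min these were 5 of the 6 genes, beside 24.1% of all genes. The share of all genes called higher than G1 was 23.3% at 5 min and 25.4%, 25.2%, 24.1%, 25.8%, 25.4%, 24.7%, 19%, 12.3% and 9.98% at the successive times from 15 to 60 min.

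**Figure D2:**
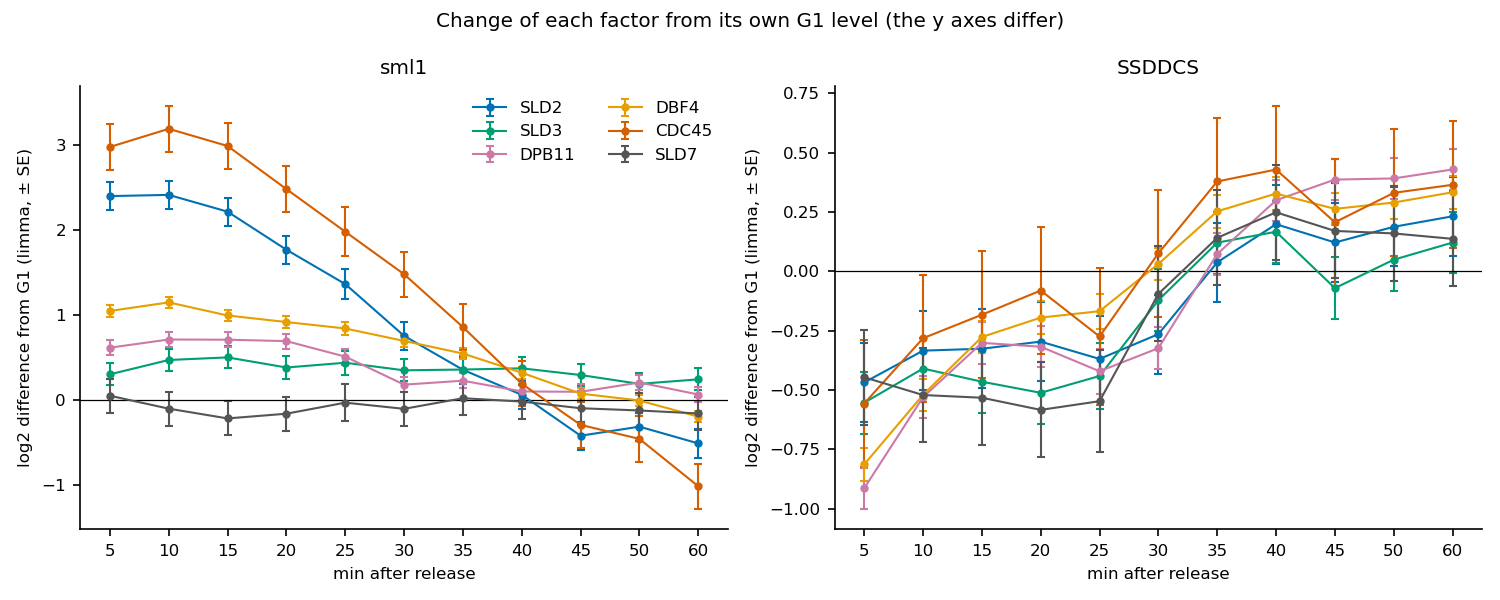
Log2 difference of each factor from its own G1 level at 5 to 60 min after release, with the standard error of the limma fit, in sml1 (left) and SSDDCS (right), on y axes of different range. In sml1, CDC45 reaches 3.19 and SLD2 2.41 at 10 min, whereas in SSDDCS the factors start below 0 at 5 min, down to -0.91 for DPB11, and end above 0.

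Genes whose native courses were most alike were looked up over the 12 time point means in sml1Δ, as a description without a test, since the points share their cultures. CDC45 was most like PDS5, a cohesin regulator (r = 0.999), followed by AXL2 and RIF1. For SLD2 the nearest were DPB2, a subunit of the leading-strand DNA polymerase (r = 0.998), MSH6 and BNR1, and for DBF4 they were PIF1, a DNA helicase (r = 0.997), KRE6 and RTT107. DPB11 was nearest to BCK1 (r = 0.982), SND2 and MMS4. SLD3 was nearest to RRN3, an RNA polymerase I initiation factor (r = 0.952), RRN7 and BBP1, and SLD7 to SRP1 (r = 0.869), LYS2 and YHR165W-A. Among themselves, the 15 pairs of members had r between -0.30 (SLD3 and SLD7) and 0.988 (SLD2 and CDC45), with a median of 0.693.

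The next comparison was between strains. SSDDCS was above sml1Δ for 6 of 6 factors at each time point. Of all genes, 0.359%, 0.218%, 0.249%, 1.84%, 10.2%, 12.6%, 17%, 14.7%, 10.7%, 8.19%, 5.5% and 2.62% were called higher in SSDDCS at the 12 successive time points from G1 to 60 min. This follows from the constructs and serves as the check of the strain labels. For CDC45, SLD2, DBF4 and DPB11 the strain difference was smallest at 5 min, when their native genes in the control were near their highest, and largest at 60 min. For SLD3 it was smallest at 15 min and for SLD7 at 25 min.

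The narrowest gap, the lowest SSDDCS library over the highest sml1Δ library of the same time, was 3.00-fold for CDC45 and 5.25-fold for DBF4, both at 5 min. It was 5.28-fold for SLD3 at 15 min, 5.47-fold for SLD2 at 10 min and 6.80-fold for SLD7 at 25 min. DPB11 stood apart most clearly, with a narrowest gap of 17.4-fold at 5 min.

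The control level of CDC45 was 18.6% of the SSDDCS level at 5 min and 0.604% at 60 min. For SLD2 these shares were 15.4% and 1.29%, and for DBF4 15.7% and 2.99%. DPB11 had the smallest shares, from 1.18% at 60 min to 4.36% at 5 min. SLD3 ranged from 7.02% in G1 to 13.6% at 15 min and SLD7 from 5.06% to 8.83%. These shares bound how much the native copies could have added in SSDDCS only if they were transcribed there as in the control, which was not tested.

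The interaction of strain and time asked if the gap between strains at a later time was the one seen in G1. Each term is the change from G1 in SSDDCS minus that in sml1Δ, so it restates in part the native courses given above. For CDC45 at 5 min these log2 changes were -0.56 and 2.98. At 5 min the gap was smaller for 4 of the 6 factors, with -3.54 for CDC45, -2.87 for SLD2, -1.86 for DBF4 and -1.53 for DPB11 on the log2 scale. Their limma adjusted p-values were 5.02e-11, 4.33e-16, 1.42e-26 and 3e-16. Of all genes, 0.0935% were called in that direction, which is 6 genes with these 4 factors among them. SLD3 had -0.85 (adjusted p = 0.0122), which passed with the culture as a block (0.000458, 0.14% of all genes), and SLD7 had -0.49 (adjusted p = 0.999). Over the whole course the F-test of these terms called 5 of the 6, beside 22.3% of all genes. SLD7 was the exception (adjusted p = 0.0243) and was called with the block (8.51e-11, 42.6% of all genes). At 60 min the strain difference exceeded its G1 value for DBF4, by 0.53 (adjusted p = 0.000474, 0.405% of all genes called higher), and CDC45 had 1.38 (adjusted p = 0.0435, and 7.45e-05 with the block, 1.54% of all genes).

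**Figure D3:**
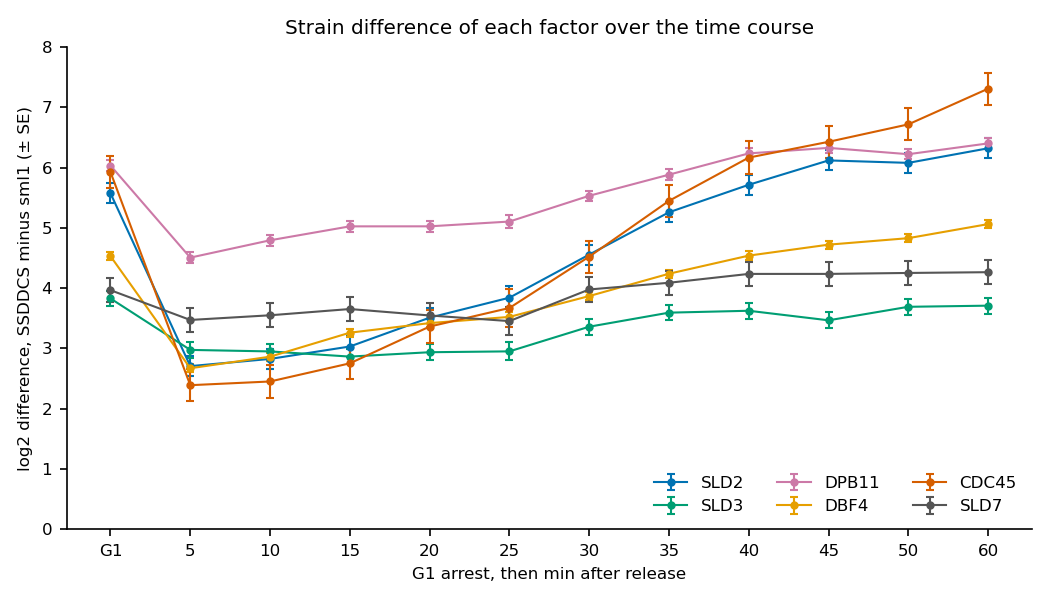
Log2 difference between strains (SSDDCS minus sml1) for each factor from G1 to 60 min, with the standard error of the limma fit. CDC45 drops from 5.92 in G1 to 2.39 at 5 min and climbs to 7.31 at 60 min, whereas SLD3 and SLD7 stay within about 1 log2 unit of their G1 value.

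Together the 6 genes took 0.360% to 0.980% of the reads of an SSDDCS library (median 0.668%) and 0.0171% to 0.0606% of an sml1Δ library (median 0.0281%). Levels were compared between genes only per kb of coding length. In sml1Δ in G1 the order was DBF4 (407 ± 25.4 per kb, SD, n = 4), SLD7 (240 ± 24.4), SLD3 (188 ± 19.6), DPB11 (177 ± 20.7), SLD2 (154 ± 22.3) and CDC45 (102 ± 16.6). Libraries of neighbours in this order overlapped, except that DBF4 stood above SLD7 and SLD2 above CDC45. At 10 min CDC45 (936 ± 96.4) and DBF4 (901 ± 56.5) led without being separated. Ranked by this level among 5834 genes with a length, CDC45 went from rank 1693 at 10 min to rank 5617 at 60 min.

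In SSDDCS the order was another one. In G1 it was DPB11 (11599 ± 1023 per kb, SD, n = 4), DBF4 (9389 ± 343), SLD2 (7317 ± 777), CDC45 (6453 ± 2001), SLD7 (3824 ± 874) and SLD3 (2685 ± 322). Only DPB11 and DBF4, and DBF4 and SLD2, were separated from each other as neighbours. DPB11 still led at 60 min (15584 ± 631), where it had rank 175 of the 5834 genes, and SLD3 (2979 ± 718) was last at each of the 12 time points. At 30 min DBF4 and DPB11 overlapped. The spread of CDC45 and SLD7 between cultures was wider than that of the other members.

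The course of the factors in SSDDCS was examined next. In this strain each factor had a lower mean at 5 min than in G1 and a higher mean at 60 min than in G1. The means of native CDC45, SLD2 and DBF4 moved the other way, though at 60 min the main fit called only CDC45. At 60 min 2 of the 6 factors in SSDDCS, DPB11 and DBF4, were called higher than G1, beside 13.6% of all genes. SLD2, SLD3, CDC45 and SLD7 were not called, even with the culture as a block (limma adjusted p = 0.229, 0.357, 0.0629 and 0.203). The F-test over the 11 later time points called all 6 (86.8% of all genes called). For CDC45 that call (adjusted p = 0.00556) was lost without sml1Δ replicate 2 (0.0155), without SSDDCS replicate 1 (0.0392), replicate 2 (0.0213) or replicate 4 (0.122), and under quantile normalization (0.0122).

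DPB11 fell from 24432, 29598, 27356 and 25090.4 in G1 to 16283, 16009, 13073 and 11546 at 5 min and reached 35613, 35713, 34098 and 37633 at 60 min. The 3 groups did not overlap, and in all 4 cultures 5 min was the lowest and 60 min the highest point. The log2 differences from G1 were -0.91 at 5 min (SE 0.09, adjusted p = 6.73e-15) and 0.43 at 60 min (adjusted p = 4.95e-05). DPB11 was below G1 from 5 to 30 min, where 27.7%, 27.6%, 27.3%, 27.4%, 25.6% and 26.3% of all genes were called lower at the successive times. It was above G1 from 40 min on, where 24.7%, 22.5%, 20.1% and 13.6% were called higher.

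DBF4 went from 19176, 19744, 19631 and 20881 in G1 to 12672, 12148, 10652 and 9912 at 5 min. It ended at 25811, 22186, 25777 and 26478. Here too the 3 groups did not overlap. The log2 differences were -0.81 at 5 min (SE 0.07, adjusted p = 2.65e-17) and 0.33 at 60 min (adjusted p = 5.62e-05). DBF4 was below G1 until 15 min and above it from 35 min on (26.2% of all genes called higher at 35 min). At 20 min it had -0.19 (adjusted p = 0.0104), which was called lower with the culture as a block (adjusted p = 0.00653, with 32.2% of all genes lower). The native gene in sml1Δ moved the other way at both times, with 1.05 at 5 min and -0.20 (not called, adjusted p = 0.0189) at 60 min.

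SLD3 fell from 5460, 4462, 5708 and 5922 to 3392, 3626, 4021 and 3587 at 5 min without overlap, a log2 difference of -0.55 (SE 0.13, adjusted p = 0.000175). It was below G1 until 25 min and at 60 min, with 6076, 3913, 7061 and 6866, overlapped it. Thus 3 of the 6 factors were called lower than G1 at 5 min, beside 27.7% of all genes.

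SLD2, CDC45 and SLD7 also had lower means at 5 min, which the main fit did not call. With the culture as a block all 6 factors were called (32.9% of all genes). SLD2 went from 8388, 10357, 10622 and 10498 to 6803, 7504, 7337 and 7059, without overlap (log2 -0.47, adjusted p = 0.0116, and 0.00878 with the block). CDC45 went from 15149, 11357, 7654 and 16250.1 to 10456, 9638, 5453 and 8306, which overlap, although each culture fell (log2 -0.56, adjusted p = 0.0626, and 0.00284 with the block). SLD7 fell from 2624, 3420, 2177 and 3619.9 to 2210.1, 2278, 1562 and 2604, again in each culture but with overlap between the groups (log2 -0.45, adjusted p = 0.0457, and 1.57e-05 with the block). In the whole course SLD7 was called lower than G1 at 20 min, and also at 10, 15 and 25 min with the block (32.1%, 32.4% and 30.6% of all genes).

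The change from 20 to 60 min, after the native peak, was compared next. DBF4 in sml1Δ went from 1598, 1649, 1584 and 1655 at 20 min to 735, 712, 751 and 796 at 60 min. In SSDDCS it went from 17520.2, 18459.8, 16865 and 16574 at 20 min to the 60 min values given above. Neither pair of groups overlapped, and DBF4 fell in each sml1Δ culture and rose in each SSDDCS culture. In sml1Δ, 4 of the 6 fell, beside 22.7% of all genes. The log2 differences were -3.50 for CDC45, -2.28 for SLD2, -1.11 for DBF4 and -0.63 for DPB11, with a largest adjusted p of 3.45e-09. SLD3 (-0.14, adjusted p = 0.369) and SLD7 (0.00, adjusted p = 0.992) did not pass. In SSDDCS, 5 of the 6 rose, beside 19.5% of all genes, namely DPB11 by 0.75 (adjusted p = 2.04e-11), DBF4 by 0.53 (5.72e-10), SLD3 by 0.63 (2.78e-05), SLD7 by 0.72 (0.00167) and SLD2 by 0.53 (0.00565). CDC45 had 0.45 (adjusted p = 0.16), and its 20 min values of 13819, 13917, 7260.4 and 12248 overlapped the 60 min values of 20418, 12918, 10750.3 and 20748. Without SSDDCS replicate 1 only 3 factors were called, since SLD2 (adjusted p = 0.0341) and SLD7 (0.0158) were lost. SLD2 was also lost without replicate 3 (0.0438), without replicate 4 (0.0513) and with equal library totals (0.0165).

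The difference between these changes was called for 5 of the 6 factors, beside 1.89% of all genes in that direction. It was 3.95 for CDC45 (adjusted p = 4.8e-13), 2.81 for SLD2 (2.34e-15), 1.64 for DBF4 (2.46e-23), 1.38 for DPB11 (4.12e-14) and 0.77 for SLD3 (0.00329). The SLD3 call was lost when any of sml1Δ replicates 1, 2 and 3 or SSDDCS replicates 1, 3 and 4 was left out, with adjusted p from 0.0109 to 0.0367. SLD7 had 0.72 (adjusted p = 0.0961), and 3.22e-05 with the culture as a block (5.57% of all genes). Each term is the change in SSDDCS minus that in sml1Δ, so it restates in part the native courses. The rise of CDC45 in SSDDCS was itself not called. At 20 min the control level of CDC45 was 9.46% of the SSDDCS level. If the native copy was transcribed there as in the control, which was not tested, its fall could lower the SSDDCS value only slightly. Other genes had no extra copy, so the share of all genes does not set the factors apart.

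Since the extra copies were driven by galactose, the 4 native galactose genes on the list give a reference for the medium. GAL1 (galactokinase) and GAL10 (epimerase) share the divergent promoter, GAL7 (transferase) lies beside them, and GAL2 encodes the permease. GAL2 fell to 0.431 of its G1 mean at 5 min in sml1Δ (log2 -1.23, adjusted p = 4.09e-07) and to 0.403 in SSDDCS (log2 -1.33, adjusted p = 5.13e-08). GAL10 fell to 0.653 (adjusted p = 1.75e-06) and 0.580 (adjusted p = 3.74e-09). GAL1, at 0.902 and 0.904, was not called in either strain (adjusted p = 0.22 and 0.239), nor was GAL7. The corresponding ratios of the factors in SSDDCS ran from 0.534 for DPB11 to 0.731 for SLD7, within the range spanned by GAL2 and GAL1. The limma interaction called 0 of the 4 galactose genes different between strains in this change (each with an adjusted p of 0.999), and GAL10 had the largest difference, -0.17 on the log2 scale.

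From 20 to 60 min all 4 galactose genes rose in both strains, GAL10 by 1.53 in sml1Δ and by 1.27 in SSDDCS, and GAL1 by 0.93 and 0.74 on the log2 scale. The largest of these 8 adjusted p-values was 0.00359, for GAL2 in SSDDCS. At 60 min GAL10 stood at 1.97 times its G1 mean in sml1Δ and at 1.47 times in SSDDCS, whereas DPB11 in SSDDCS stood at 1.34 times. Over the 12 time point means in SSDDCS, the members had r between 0.762 and 0.980 with GAL1, GAL10, GAL7 and GAL2 (24 pairs, median 0.894). In sml1Δ the same 24 pairs had r from -0.927 to 0.065 (median -0.766). There SLD2 had -0.927 to -0.780 and SLD7, which varied little, -0.135 to 0.065. Among themselves the members had r from 0.846 to 0.967 in SSDDCS (15 pairs, median 0.922). These are descriptions over means that share cultures. The share of all genes with an r this high is not given here. In SSDDCS the nearest gene to each member, named below, was outside the galactose list.

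**Figure D4:**
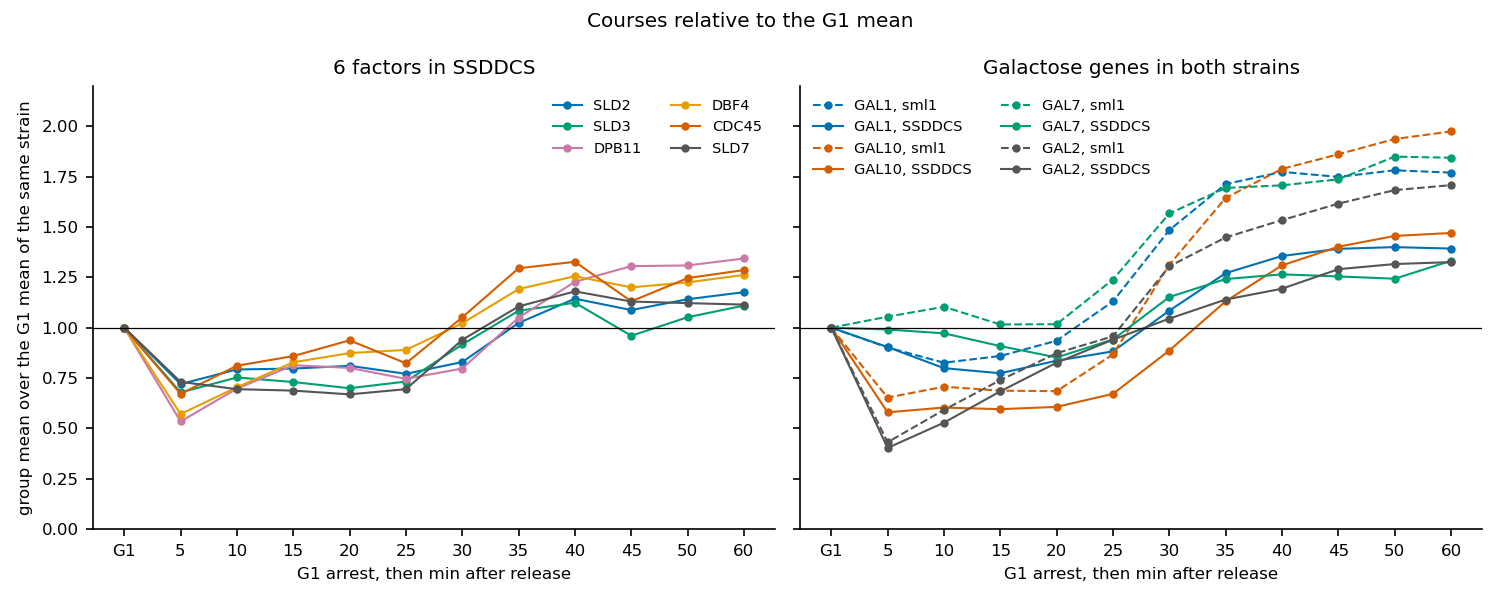
Group means divided by the G1 mean of the same strain, for the 6 factors in SSDDCS (left) and for GAL1, GAL10, GAL7 and GAL2 in both strains (right; dashed lines sml1, solid lines SSDDCS). The factors drop to between 0.53 and 0.73 at 5 min, GAL2 drops to 0.43 and 0.40, and GAL1 stays at 0.90 in both strains.

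The genes closest to each factor in SSDDCS were no longer those of the control. SLD2 was nearest to DHH1, an mRNA decapping activator (r = 0.990), FRE1 and GAL10, and DPB11 to DHH1 (r = 0.977), TYW3 and SCD6. DBF4 was nearest to YDR053W (r = 0.990), GAL2 and HSL7. By its name YDR053W lies next to DBF4, and reads of these genes cannot be told apart if they overlap. CDC45 was nearest to PSP2 (r = 0.961), RAD34 and SAC3, SLD3 to PUF2 (r = 0.950), TPP1 and TOM1, and SLD7 to ASM4, a nuclear pore protein (r = 0.980), TOM1 and AHC2. None of the 3 nearest genes of a member in sml1Δ was among its 3 nearest in SSDDCS.

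The pair on each construct shares a promoter, so their levels per kb could be set against each other in each SSDDCS culture. In each of the 3 pairs the same gene was the higher one in all 4 cultures. DBF4 was 3.87 times SLD3 (3.53 to 4.33 over cultures), CDC45 was 1.88 times SLD7 (1.74 to 2.31) and DPB11 was 1.60 times SLD2 (1.49 to 1.74), as means over time points. An exact two-sided sign-flip permutation test over the 4 cultures gave p = 0.125 for each pair (0.125 after adjustment over 3 pairs), the smallest p that 4 cultures allow, so the ratios stand as a description. They include native transcripts, and reads per kb also depend on how evenly each gene was covered.

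The DPB11 to SLD2 ratio moved with time. It was lowest at 5 min, with 1.18 ± 0.20 (SD, n = 4) and a lowest library at 0.97, and highest at 45 min, with 1.92 ± 0.19. At 60 min it was 1.83 ± 0.25, with the lowest library at 1.60. The DBF4 to SLD3 ratio was also lowest at 5 min, with 2.97 ± 0.48, and it was 4.39 ± 0.37 at 20 min and highest at 45 min, with 4.48 ± 0.75. For CDC45 and SLD7 the lowest and the highest of the 12 time points were 1.55 ± 0.28 at 5 min and 2.36 ± 0.35 at 20 min, which did not overlap. The ratios of the other times lay between them, from 1.69 in G1 to 2.15 at 15 min, and all except those at 20 and 25 min overlapped the 5 min libraries. These times were picked as extremes after their values were seen. No test was run on these differences between time points.

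**Figure D5:**
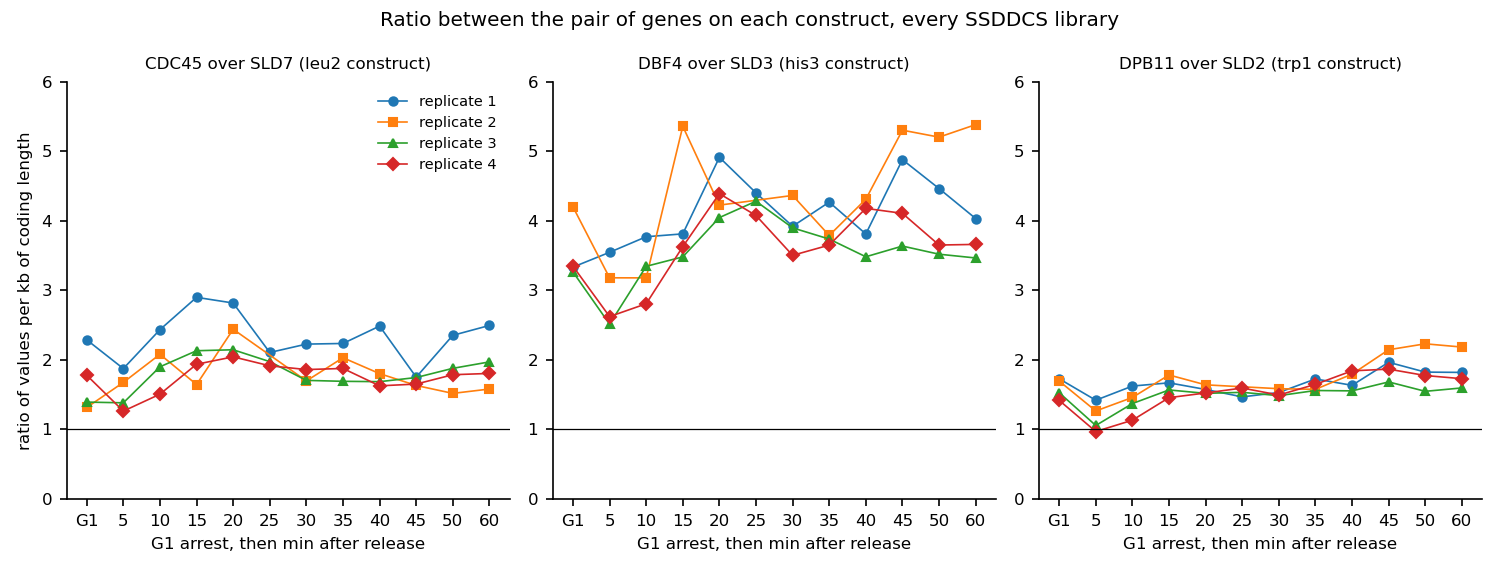
Ratio of the values per kb of coding length of the pair of genes on each construct, in each SSDDCS library from G1 to 60 min, with a line per replicate (replicate 2 has no 25 min point). DBF4 lies at 2.51 to 5.38 times SLD3, CDC45 at 1.26 to 2.90 times SLD7, and DPB11 at 0.97 to 2.23 times SLD2.

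SSDDCS replicate 3 differed from the other cultures in CDC45 and SLD7, the pair of the LEU2 construct. In G1 its CDC45 value was 7654, against 11357 to 16250.1 in the others, and its SLD7 value was 2177, against 2624 to 3619.9. Both genes were below every other culture at 12 of 12 time points. Relative to the mean of the others, CDC45 lay at 0.513 to 0.716 and SLD7 at 0.558 to 0.706. For the other 4 members, the ratio averaged over time was 0.988 (DPB11) to 1.13 (SLD3) in this culture.

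The same culture had 2.19 times the LEU2 value of the others and was highest at 11 of 12 time points. LEU1, another leucine biosynthesis gene, chosen after its values were seen, was 3.28 times that of the others and highest at 12 of 12. Over time LEU1 averaged 7200.2 in replicate 3, 2125 to 2341 in the other SSDDCS cultures and 12688 to 18209 in the sml1Δ cultures. HIS3 and TRP1 of the other constructs stood at 0.897 and 1.01 of the other cultures. The part of any of these differences in the values of CDC45 and SLD7 was not tested. Without replicate 3 the median coefficient of variation went from 27.1% to 13.8% for CDC45 and from 23.3% to 10.4% for SLD7. The log2 strain difference then ran from 2.59 to 7.49 for CDC45 and from 3.62 to 4.45 for SLD7, and all 24 calls stood.

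The marker genes of the constructs were also followed. HIS3, an enzyme of histidine synthesis, went from 4809 ± 757 in G1 to 11701 ± 2304 at 60 min in SSDDCS (SD, n = 4). TRP1, of tryptophan synthesis, went from 4232 ± 537 to 7571 ± 291. Both rose against G1, by 1.28 (adjusted p = 1.43e-15) and 0.85 (adjusted p = 1.6e-17) on the log2 scale, beside 0.33 for DBF4 and 0.43 for DPB11, and that contrast between genes was not tested. At 5 min, where DBF4 and SLD3 fell, HIS3 had 0.18 (adjusted p = 0.177) and TRP1 fell by 0.22 (adjusted p = 0.00494). LEU2 in SSDDCS had -0.82 against G1 at 60 min (adjusted p = 0.0465). The strain comparison called LEU2 lower in SSDDCS at 8 time points, from 20 to 60 min. It called both HIS3 and TRP1 higher at 12 of 12. Among all genes it called 0.296% lower and 0.359% higher in G1, and 14.3% lower and 17% higher at 30 min. At 60 min LEU2 stood at 862 ± 466 in SSDDCS and 3875 ± 803 in sml1Δ (log2 -2.28, adjusted p = 5.65e-07). Reads of the LEU2 marker and of the leu2-3,112 allele that both strains carry cannot be told apart.

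Among the nearest annotated genes of the native loci, GWT1 and SIP4 beside DPB11 differed most often between strains. GWT1, a GPI anchor enzyme that begins 204 bases beyond the end of DPB11 on the same strand, was lower in SSDDCS at 12 of 12 time points (0.296%, 0.203%, 0.0935%, 1.01%, 7.86%, 9.04%, 14.3%, 12.9%, 9.12%, 5.35%, 3.7% and 2.73% of all genes called lower from G1 to 60 min), with means of 752 in sml1Δ and 196 in SSDDCS at 30 min. SIP4, a transcription factor 874 bases away on the other side, was higher at 6 time points, with 64.7 and 231 at 30 min. Among all genes, 10.2%, 17% and 2.62% were called higher at 20, 30 and 60 min. TAF6 beside SLD3 and LCL2 beside CDC45 were lower at 5, CDC34 beside DBF4 at 4 and DET1 at 2, while YKL107W beside SLD2 and APC9 beside CDC45 were higher at 1. HAP4, YGL114W, LPL1 and CKA2 were not called at any. YDR053W, a reading frame the annotation does not place but whose name puts it next to DBF4, followed DBF4 with a strain difference of 4.50 in G1, 2.56 at 5 min and 5.05 at 60 min. The counting is not stated to use strand, so its reads and those of DBF4 cannot be told apart if they overlap.

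The other genes of the pathway came from lists of licensing factors, helicase activation partners, kinases and timing regulators, of which 33 were tested. In G1, at 5 min and at 10 min 0 of the 33 were called between strains by limma, and 2, 2 and 3 had an unadjusted p under 0.05. By edgeR these counts were also 0, and DESeq2 called 1 gene in G1 and 0 at 5 and 10 min. Of all genes, limma called 0.359%, 0.218% and 0.249% higher at these times and 0.296%, 0.203% and 0.0935% lower. With so few genes called, a count of 0 does not set the list apart. At 20 min 8 of the 33 were lower and none higher, beside 7.86% and 10.2% of all genes. At 30 min 2 were higher and 6 lower, beside 17% and 14.3%, with a median log2 difference of -0.05 over the list and -0.04 over all genes. At 60 min 0 were called by limma, edgeR and DESeq2, and 5 had an unadjusted p under 0.05 by limma. Of all genes, limma called 2.62% higher and 2.73% lower at that time.

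Those called at 3 or more time points were 4 subunits of the origin recognition complex, which marks origins, and 2 of GINS. The share of all genes called at 3 or more time points was not worked out, so these counts do not set the list apart. At 30 min alone, 17% of all genes were called higher and 14.3% lower. ORC2 was lower at 6 time points, with 459 ± 36.5 in SSDDCS against 603 ± 21.8 in sml1Δ at 30 min (SD, n = 4; log2 -0.40, adjusted p = 9.64e-05). ORC3 was lower at 4 (log2 -0.59 at 30 min) and ORC1 at 3 (-0.51). ORC5 was the exception and was higher at 5, with 685 ± 82.3 against 439 ± 35.8 at 30 min (log2 0.63, adjusted p = 2.58e-06). The GINS genes PSF2, lower at 5 time points, and PSF1, lower at 3, had -0.39 and -0.42 at 30 min. From the reference lists of cell cycle genes, the G1 cyclin CLN1 was lower at 6 time points (-0.87 at 30 min). The mitotic cyclin CLB1 was lower at 3 (-0.89) and ALK1 at 1 (-0.67). No other gene of these lists was called at any time point, the cyclins CLN2, PCL1 and CLB2 included. The log2 differences of these uncalled genes at 30 min ran from -0.43 (CDC9) to 0.56 (PCL1). At that time 14.3% of all genes were called lower.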

How the data were processed

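RNA-seq was performed on 94 libraries of cultures that the study calls biological replicates. The cultures grew overnight in raffinose medium before the arrest, and whether replicates came from separate colonies is not stated, so p-values measure the spread between these samples. The deposited table holds a signal per gene, which the authors made by dividing read counts by DESeq2 size factors. Their processing notes name TopHat2 2.0.6, cutadapt and the sacCer3 build, while the methods name bowtie2 and S288C R64. Whether counting used strand is not given in the sources used here. Another 2 columns of the table could not be matched to a sample by name and were not used. Dividing each column by the value of 1 read gave whole reads for 100% of values (within 0.0001).

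The 6 members and all gene lists were chosen with earlier results of these data known. The log2 of the value plus a pseudocount of 1 was fitted with limma 3.58.1 in R 4.3.3, with 24 group means over all libraries and 6414 genes (30 genes with a mean value under 10 were left out). Contrasts were SSDDCS against sml1Δ at each time, each time against G1 within a strain, the difference between those changes (interaction), and 60 against 20 min. Adjusted p-values (Benjamini-Hochberg over all genes tested) under 0.01 were called. The alternatives were a pseudocount of 0.1 or 5, no filter, equal library totals, quantile normalization, the replicate number as a block, a correlation within cultures, leaving out each culture in turn or the 50 and 60 min libraries of sml1Δ replicate 4, each time point alone, and edgeR 4.0.16 or DESeq2 1.42.0 on the recovered reads. Between strains edgeR called 44 genes in G1 and 2025 at 30 min, and limma 42 and 2008. The main limma fit was tested on simulated counts, for the strain contrast at 30 min and the F-test of the interaction. The simulated counts held no culture effect, and the other fits and contrasts were not tested in this way.

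Replicate numbers paired cultures over time within a strain, since libraries of a number are successive samples of a culture (median correlation of deviations 0.641 over 84 consecutive pairs). A fit with the culture as a block was added after the data were seen. Between strains, same-numbered libraries had a median correlation of 0.389 and other pairs -0.096, but not every same-numbered pair was over 0.1, so the numbers were not taken as pairs. The text names the 6 members, the galactose list, the list genes called between strains at 3 or more time points, the 3 genes most correlated with each member, the nearest annotated genes and the construct markers. GLC7 is not analysed here.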

Additional observations from a re-analysis of the deposited data

Results flagged for a closer look

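In 5 of 132 groups of 4 libraries, 1 library lay farther from the rest than the 95% limit of Dixon's test allows, where chance would give about 6.6 (1 group in 20). SLD2 in SSDDCS replicate 1 in G1 had 8388, against 10357 to 10622 in the others, and DPB11 in sml1Δ replicate 1 at 45 min had 391, against 441 to 451. DPB11 in SSDDCS replicate 2 at 20 min had 22490.1, against 20845 to 20992, and DBF4 in SSDDCS replicate 2 at 60 min had 22186, against 25777 to 26478. CDC45 in SSDDCS replicate 3 at 35 min had 9539, against 18235 to 18898, and this culture was the lowest for CDC45 at all 12 time points.

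The change from G1 to 5 min differed between strains by the interaction term for CDC45 (-3.54 on the log2 scale, SSDDCS minus sml1Δ), SLD2 (-2.87), DBF4 (-1.86) and DPB11 (-1.53). The change from 20 to 60 min differed for CDC45 (3.95), SLD2 (2.81), DBF4 (1.64), DPB11 (1.38) and SLD3 (0.77). All of these terms include the native change in sml1Δ, so they restate in part the native courses.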

How the results depend on the processing

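All 72 strain calls of the 6 factors kept their direction and their side of the threshold under 19 alternatives. Of the summary values, 236 of 239 alternatives stayed within 1.5 times the main count or 1 SD. The number of factors below G1 at 5 min in SSDDCS went from 3 to 6 with the culture as a block and to 6 with a correlation within cultures (3 to 4 when a culture was left out). The number that rose from 20 to 60 min in SSDDCS went from 5 to 3 without SSDDCS replicate 1 (3 to 5 over all cultures left out). The pairs of factor and time point above G1 in sml1Δ numbered 26 to 35, against 30. Of 2052 alternatives for 108 single values, 22 lost a call, 47 gained one and 7 changed sign, all of these for SLD7 in sml1Δ, where no value was called. For 5 min against G1 (main 0.05), leaving out a culture gave -0.019 (without sml1Δ replicate 3) to 0.11, and edgeR gave -0.00040. For 30 min (main -0.11), leaving out a culture gave -0.16 to 0.011 (without sml1Δ replicate 2), and quantile normalization 0.0013. For 60 against 20 min (main 0.00), leaving out a culture gave -0.057 (without sml1Δ replicate 3) to 0.062, with -0.0023 without replicate 2, and equal library totals gave -0.10. The causes were not tested.

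The replicate number was not taken to pair the strains, since 38 of 47 correlations of same-numbered libraries were over 0.1 (median 0.389, lowest -0.36), against a median of -0.096 for other pairs. Of the 47 libraries of either strain, 32 in sml1Δ and 36 in SSDDCS correlated best with their own number, a hint from the data and not from the design. With that number as a replicate block, 72 strain calls stood, 32 pairs were above G1 in sml1Δ, 4 factors were below G1 at 5 min in SSDDCS, and 5 differed between strains at 5 min. Equal library totals moved the median of all genes by up to 0.15 (SSDDCS at 20 min against G1). Native CDC45 at late times rests on values down to 81.9, the lowest of any member.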
